A study of Mus musculus with 4 samples.

Results

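The genes described here encode the machinery that prepares origins of DNA replication and then runs the replication fork. They are 52 genes chosen by name from a table of gene expression in the gastric corpus, the part of the stomach whose glands secrete acid, and all 52 were found among its 52125 rows. The names were sorted by role into 15 licensing genes, 9 polymerase genes and 28 fork genes. RNA was sequenced from 4 wild-type C57BL/6 mice aged 6 to 8 weeks, 1 mouse per library. The 2 HDT mice were studied 48 hr after 1 intraperitoneal injection of HDT, given at 5 mg per 20 g of body weight to damage the stomach, and the 2 vehicle mice belong to the same time point. HDT commonly stands for high-dose tamoxifen in gastric injury work, but the labels do not spell it out. The titles name the controls as vehicle where the protocol texts say untreated, so it is not certain that the controls were injected. The series asks about Iqgap3 and Ras in corpus stem cell division, and the comparison described here asks how far the replication genes differed between injured and control corpus.

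A cell licenses its origins before S phase. The origin recognition complex (Orc1 to Orc6) marks the origin, Cdc6 and Cdt1 load the ring-shaped Mcm2-7 helicase onto it, and geminin (Gmnn) blocks Cdt1 so that no origin is licensed again in the same cycle. At the start of S phase the kinase Cdc7 with its activator Dbf4, together with Treslin (Ticrr), Mcm10, Cdc45 and the 4 GINS subunits, turns the ring into an active helicase. Polymerase alpha and its primase then lay primers, polymerases epsilon and delta extend them, the sliding clamp Pcna and its loader Rfc keep the polymerases on DNA, and Fen1 and Lig1 join the Okazaki fragments. Many of these genes are known targets of E2F transcription factors, which the retinoblastoma proteins hold back in resting cells. In the corpus, division is normally kept to the isthmus of the gland, and injury is known to draw more cells into the cycle.

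The genes were chosen by name and not by the sequence near their start sites. Since many were already known as E2F targets, a high share of E2F matches among them was likely beforehand. RefSeq promoter windows on GRCm38.p6, from 250 bases before to 50 bases after the start site, were matched by symbol to 43 of the 52 genes, some with more than 1 window. The E2F consensus was searched as 4 spellings of 8 bases, TTTCGCGC, TTTGGCGC, TTTCCCGC and TTTGCCGC, on both strands, with overlapping matches counted separately. A match was found for 18 of the 43 genes, or 41.9%, against 2.6% of the 27025 genes with a window and 4.2% of the 12110 genes that had a window and were tested for expression. The stretches below are shown because they carry these matches in genes of several roles, 60 bases long, 5′ to 3′ on the strand of the gene, with the matching bases in capitals.
Orc1 (chr4:108579401-108579460, plus strand): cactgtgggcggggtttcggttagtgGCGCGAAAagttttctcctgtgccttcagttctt
Orc3 (chr4:34614950-34615009, minus strand): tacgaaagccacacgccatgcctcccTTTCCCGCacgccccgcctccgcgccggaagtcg
Cdc6 (chr11:98907987-98908046, plus strand): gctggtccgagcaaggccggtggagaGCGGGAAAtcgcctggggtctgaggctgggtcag
Cdt1 (chr8:122568005-122568064, plus strand): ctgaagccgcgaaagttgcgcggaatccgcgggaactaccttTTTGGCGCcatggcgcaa
Mcm3 (chr1:20820263-20820322, minus strand): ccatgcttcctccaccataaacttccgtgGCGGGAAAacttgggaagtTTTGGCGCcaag
Mcm5 (chr8:75109330-75109389, plus strand): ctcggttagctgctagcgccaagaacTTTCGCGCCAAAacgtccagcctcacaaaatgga
Pola1 (chrX:93632260-93632319, minus strand): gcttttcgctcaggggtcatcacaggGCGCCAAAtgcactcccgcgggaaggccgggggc
Pole2 (chr12:69228147-69228206, minus strand): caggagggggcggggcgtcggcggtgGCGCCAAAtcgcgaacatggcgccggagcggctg
Clspn (chr4:126556970-126557029, plus strand): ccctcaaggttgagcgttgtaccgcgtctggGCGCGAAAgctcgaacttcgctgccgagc
Hells (chr19:38930902-38930961, plus strand): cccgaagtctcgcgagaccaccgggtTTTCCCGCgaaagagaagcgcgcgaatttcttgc

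Mcm6 held 3 matches, of which 2 overlap, and its whole window is shown as the one with most matches among the 43 genes with a window. Their first bases lie at −110, −106 and −47 from the start site.
Mcm6 (chr1:128359656-128359955, minus strand): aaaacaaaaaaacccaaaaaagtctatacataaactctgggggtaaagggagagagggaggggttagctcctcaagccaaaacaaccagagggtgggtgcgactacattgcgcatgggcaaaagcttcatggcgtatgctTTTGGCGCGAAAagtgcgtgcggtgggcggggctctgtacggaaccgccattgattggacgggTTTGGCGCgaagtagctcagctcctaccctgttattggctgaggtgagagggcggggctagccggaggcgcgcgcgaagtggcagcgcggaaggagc

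Of the helicase core genes with a window, Mcm3, Mcm5, Mcm6 and Mcm7 had a match and Mcm2 had none. A pair of other cell cycle elements was searched in the same windows. The CHR element, spelled TTTGAA or TTCGAA, was present for 20.9% of the 43 genes, 21.7% of all genes with a window and 16.6% of the tested ones. CCAAT was present for 58.1% of the 43 genes, 41.1% of all genes with a window and 42.1% of the tested ones. A match is only a run of letters in this window, and its absence says only that these letters are not in the window.

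Depth ranged from 41536686 to 42674985 reads per library, and even the scarcest of the 52 genes had 26 reads in its lowest library. Levels are given as CPM, the share of a library's reads that fell on a gene, scaled for library composition by TMM, a method that centres most genes on no change. The defining parietal and chief cell genes were well above 0 in every library, with Atp4a of the proton pump at 6782 and 7649 CPM in vehicle and 1109 and 879.8 CPM in HDT and Gif, the intrinsic factor gene, at 1851 and 2468 CPM in vehicle and 571 and 394 CPM in HDT. The keratins Krt5, Krt14 and Krt13 of squamous epithelium lay at 1.33 CPM or below. Vehicle replicate 2 stood apart in genes of exocrine pancreas, whose 6 summed members reached 27.1 and 125 CPM in vehicle and 10.7 and 12.5 CPM in HDT, with Prss2 at 13.6 CPM there and at or near 0 elsewhere. Fits without that library are also described below.

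At 48 hr after HDT the replication genes were higher almost throughout. Of the 52 genes, 46 were higher in HDT and 0 were lower by limma (adjusted p under 0.05 over all 18285 tested genes), and the other 6 were not called. Over all tested genes 18.4% were called higher and 19.3% lower. With edgeR on whole reads the counts were also 46 and 0, with DESeq2 44 and 0, and at an unadjusted limma p under 0.05 the lower count was 1, which was Orc4. Over all tested genes edgeR called 3323 higher and 3445 lower, and DESeq2 called 2626 higher and 2896 lower. The median log2 fold change of the 52 genes was 1.09, where the median over all tested genes was −0.002, and 29 of the 52 were called at least 2-fold higher, against 4.07% of all tested genes. For 49 genes both HDT mice lay above both vehicle mice, as did 35.3% of all tested genes. For 2, Orc3 and Orc4, both lay below, and for Gmnn the groups overlapped, while over all tested genes 70.8% did not overlap in one direction or the other. By group, 11 of 15 licensing genes were higher with a median of 1.23, 9 of 9 polymerase genes with a median of 1.06, and 26 of 28 fork genes with a median of 1.10. No test between the groups was made, and their ranges overlap. Licensing genes ranged from −0.17 to 1.80, polymerase genes from 0.50 to 1.90 and fork genes from 0.13 to 1.80.

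The scaling sets how the 6 uncalled genes read. Used as deposited, without TMM, the values moved the median over all tested genes to 0.526 (log2), called 11483 genes higher (62.8%) and 998 lower (5.46%), where TMM called 3369 and 3522, and called all 52 replication genes higher. Changes below are relative to the TMM centre. Fits that leave out 1 library, vehicle replicate 2 among them, are described at the end by their median log2 fold changes. In bulk tissue, more cells in the cycle and more of each RNA per cell cannot be told apart.

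**Figure D1:**
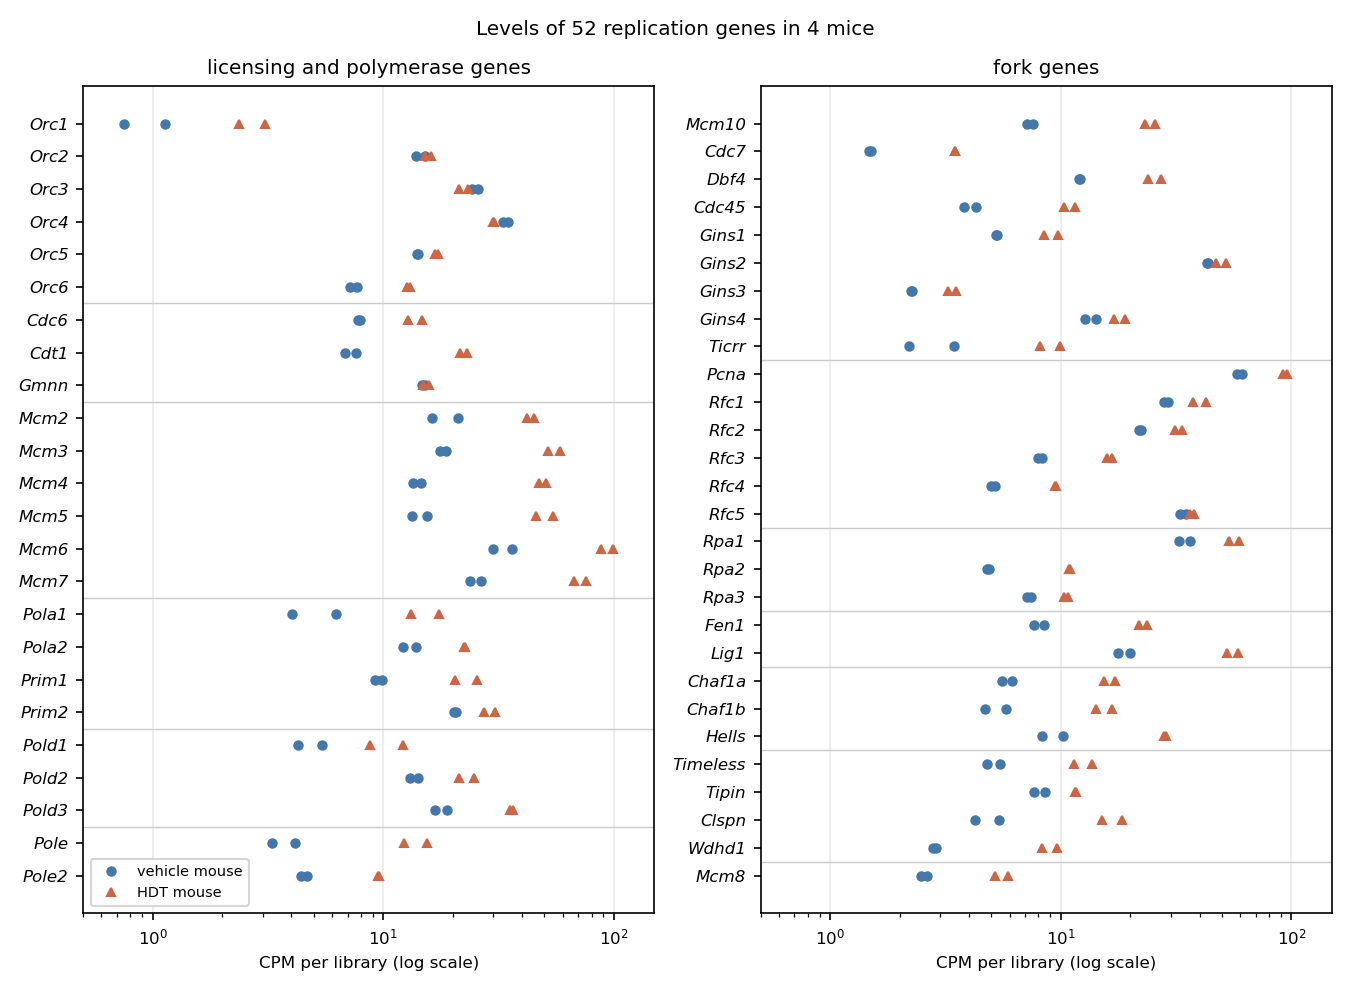
CPM of each of the 52 genes in each library, on a log axis, with circles for the 2 vehicle mice and triangles for the 2 HDT mice; grey lines separate roles. The HDT mice lie to the right of the vehicle mice for 49 genes, to the left for Orc3 and Orc4, and among them for Gmnn.

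Origin recognition had the widest range of log2 fold changes of any role, from −0.17 to 1.52, and 3 of its 6 genes were called. Orc1, the largest subunit and the one whose level is known to follow the cell cycle, was at 1.14 and 0.755 CPM in the vehicle mice and 3.07 and 2.36 CPM in the HDT mice (log2 fold change 1.52, SE 0.26, limma adjusted p = 0.00267; chromosome 4, 108579423 to 108614833, GRCm38). Its mean level per exon length was the lowest of the 52 genes in both groups, and its groups did not overlap. Orc6, a small subunit, was at 7.67 and 7.17 CPM in vehicle and 13.1 and 12.7 CPM in HDT (log2 fold change 0.80, SE 0.0985, limma adjusted p = 0.000543). Both HDT mice were above both vehicle mice for these genes.

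The middle subunits behaved otherwise. Orc2 was at 13.8 and 15.2 CPM in vehicle and 16.2 and 15.2 CPM in HDT (log2 fold change 0.11, SE 0.0896, limma adjusted p = 0.352; chromosome 1, 58462771 to 58505109), and the lower HDT mouse lay just above the higher vehicle mouse. Orc3 was at 23.2 and 21.3 CPM in the HDT libraries against 25.6 and 24.3 CPM in the vehicle libraries (log2 fold change −0.17, SE 0.0785, limma adjusted p = 0.131; chromosome 4, 34570796 to 34614944). Orc4 was at 34.7 and 33.2 CPM in vehicle and 30.2 and 30.0 CPM in HDT (log2 fold change −0.17, SE 0.0665, limma adjusted p = 0.0739; chromosome 2, 48902824 to 48950277). For Orc3 and Orc4 the HDT mice lay below the vehicle mice with TMM, without a call, and at the deposited scaling both were called higher, by 0.36 each. Orc5 was called higher at a small size, 13.9 and 14.1 CPM in vehicle and 17.3 and 16.8 CPM in HDT (log2 fold change 0.28, SE 0.0804, limma adjusted p = 0.0272), and this call was lost without vehicle replicate 1, vehicle replicate 2 or HDT replicate 1, at adjusted p of 0.0864 to 0.104. It was lost also with DESeq2 (adjusted p = 0.0963). Orc2 shares 29.8% of its exonic bases with Nif3l1 on the opposite strand, and since the strand setting of the counting is not given in the sources used here, reads of the 2 genes cannot be told apart there. Orc4 shares 6.0% of its exonic bases with Acvr2a on the opposite strand, which was called lower (log2 fold change −0.25, limma adjusted p = 0.0214).

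The loaders of the helicase rose and their inhibitor did not pass the test. Cdt1 was at 6.85 and 7.61 CPM in the vehicle mice and 23.0 and 21.5 CPM in the HDT mice (log2 fold change 1.62, SE 0.0975, limma adjusted p = 1.61e-05; chromosome 8, 122568015 to 122573554), so the lower HDT mouse had nearly 3 times the CPM of the higher vehicle mouse. Cdc6, the ATPase that loads the ring with Cdt1, was at 7.90 and 7.78 CPM in vehicle and 14.7 and 12.8 CPM in HDT (log2 fold change 0.81, SE 0.11, limma adjusted p = 0.000693). Gmnn was at 14.7 and 15.2 CPM in the vehicle mice and 15.8 and 14.9 CPM in the HDT mice (log2 fold change 0.04, SE 0.0835, limma adjusted p = 0.734; chromosome 13, 24751845 to 24761923), and here the groups overlapped. The lack of a call does not show that Gmnn was unchanged, and at the deposited scaling it was called higher, by 0.57.

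The ratio of Cdt1 to Gmnn CPM within a library was 0.464 and 0.502 in the vehicle mice and 1.46 and 1.44 in the HDT mice. Such ratios are not corrected for gene length, so only their difference between mice can be read, and the pairs were picked after the values were seen. The ratio of Cdc6 to Gmnn was 0.536 and 0.513 in the vehicle mice and 0.929 and 0.858 in the HDT mice. Both ratios were higher in each HDT mouse than in each vehicle mouse, by 2.99-fold and 1.7-fold in the mean.

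The 6 genes of the helicase core rose together, with log2 fold changes from 1.23 to 1.80. Mcm5 was at 13.3 and 15.5 CPM in the vehicle mice and 54.7 and 45.8 CPM in the HDT mice (log2 fold change 1.80, SE 0.11, limma adjusted p = 2.47e-05; chromosome 8, 75109569 to 75128439). Mcm2 had the smallest change of the ring, at 16.3 and 21.1 CPM in vehicle and 45.2 and 42.1 CPM in HDT (log2 fold change 1.23, SE 0.12, limma adjusted p = 0.000395; chromosome 6, 88883474 to 88898780). Every HDT mouse was above every vehicle mouse for all 6. Mcm6 was at 99.0 and 88.0 CPM in the HDT libraries against 30.0 and 36.2 CPM in the vehicle libraries, and Mcm7 at 75.5 and 67.3 CPM in the HDT libraries against 23.8 and 26.7 CPM in the vehicle libraries. The log2 fold changes of Mcm3, Mcm4, Mcm6 and Mcm7 were 1.60, 1.80, 1.50 and 1.50, each called. The summed CPM of Mcm2 to Mcm7, divided by that of Orc2 to Orc5, was 1.30 and 1.53 in the vehicle mice and 4.42 and 4.11 in the HDT mice, a 3.01-fold higher mean. This divisor, chosen after the values were seen, leaves out Orc1 and Orc6, which had the largest log2 fold changes of their role. With them, the summed CPM of Orc1 to Orc6 was 96.9 and 94.7 in the vehicle mice and 102.9 and 98.4 in the HDT mice.

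**Figure D2:**
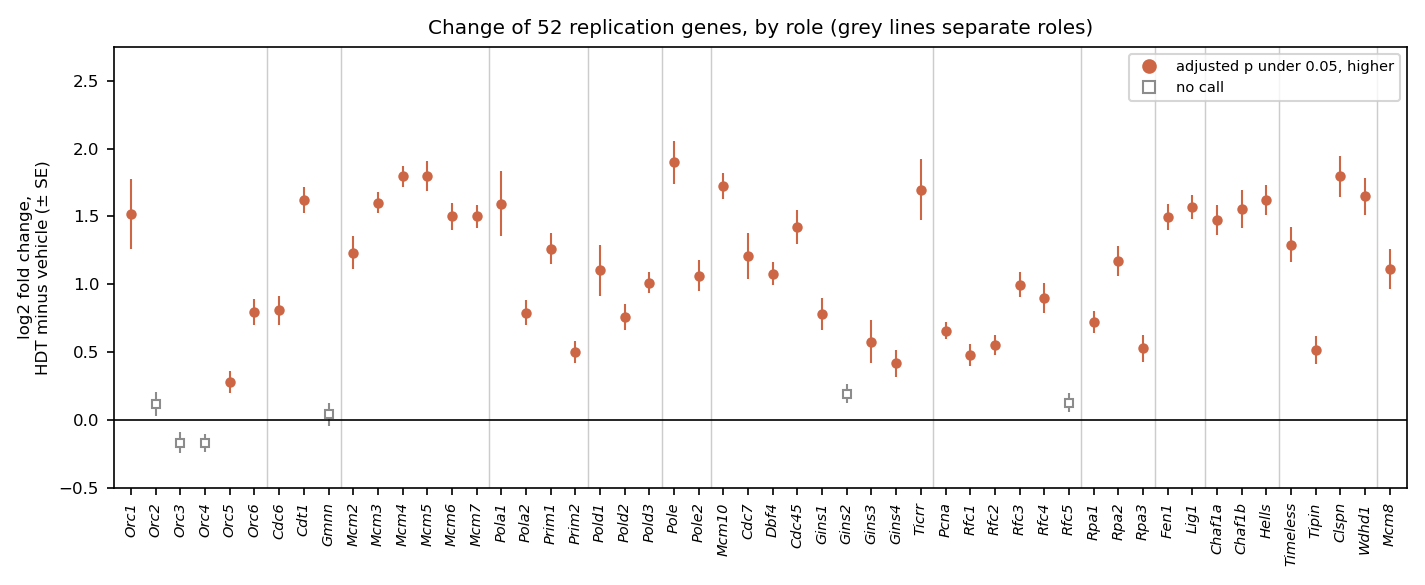
Log2 fold change of each of the 52 genes, HDT minus vehicle, with its limma SE, in order of role; filled circles passed an adjusted p under 0.05 and open squares did not. The 6 open squares are Orc2, Orc3, Orc4, Gmnn, Gins2 and Rfc5, and the 6 helicase genes from Mcm2 to Mcm7 lie between 1.23 and 1.80.

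Polymerase genes were all called higher, by unequal amounts. The catalytic subunit of polymerase epsilon, Pole, which copies the leading strand, was at 3.29 and 4.12 CPM in the vehicle mice and 15.6 and 12.2 CPM in the HDT mice (log2 fold change 1.90, SE 0.16, limma adjusted p = 9.1e-05; chromosome 5, 110286306 to 110337474). This was the largest log2 fold change of the 52 genes. Its partner Pole2 was at 4.69 and 4.41 CPM in vehicle and 9.45 and 9.59 CPM in HDT (log2 fold change 1.06, SE 0.11, limma adjusted p = 0.000258; chromosome 12, 69201773 to 69228195). The ratio of Pole to Pole2 CPM was 0.703 and 0.934 in the vehicle mice and 1.65 and 1.28 in the HDT mice, higher in both HDT mice.

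Pola1, the catalytic subunit of polymerase alpha, was at 4.03 and 6.21 CPM in vehicle and 17.4 and 13.2 CPM in HDT (log2 fold change 1.59, SE 0.24, limma adjusted p = 0.00426; chromosome X, 93304767 to 93632155). The vehicle mice differed from each other, and the SE was among the 3 largest of the 52 genes. Prim2, the large primase subunit, was at 20.7 and 20.3 CPM in vehicle and 27.3 and 30.6 CPM in HDT (log2 fold change 0.50, SE 0.0805, limma adjusted p = 0.00203; chromosome 1, 33453810 to 33669795), the smallest change among the polymerase genes. The catalytic primase subunit Prim1 had a log2 fold change of 1.26, and the regulatory subunit Pola2 one of 0.79. In both pairs the catalytic subunit had the larger log2 fold change. The ratio of Prim1 to Prim2 CPM was 0.445 and 0.486 in the vehicle mice and 0.933 and 0.670 in the HDT mice. That of Pola1 to Pola2 was 0.291 and 0.509 in the vehicle mice and 0.769 and 0.590 in the HDT mice. The groups did not overlap in either ratio.

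Polymerase delta copies the lagging strand. Its catalytic subunit Pold1 was at 4.26 and 5.43 CPM in the vehicle mice and 12.2 and 8.80 CPM in the HDT mice (log2 fold change 1.10, SE 0.19, limma adjusted p = 0.00355; chromosome 7, 44532746 to 44548849). The accessory subunit Pold2 was at 13.1 and 14.1 CPM in vehicle and 24.8 and 21.3 CPM in HDT (log2 fold change 0.76, SE 0.0980, limma adjusted p = 0.00066; chromosome 11, 5872180 to 5878292). Pold3, a further accessory subunit, lay between them with a log2 fold change of 1.01.

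Among the fork genes, those that switch the helicase on ranged widely. Mcm10, which helps the loaded ring to start unwinding, was at 7.61 and 7.11 CPM in the vehicle mice and 25.5 and 23.3 CPM in the HDT mice (log2 fold change 1.73, SE 0.0935, limma adjusted p = 1.05e-05; chromosome 2, 4989714 to 5012791). Ticrr, the Treslin gene that brings Cdc45 to origins, was at 2.19 and 3.46 CPM in vehicle and 9.88 and 8.14 CPM in HDT (log2 fold change 1.70), and Cdc45 at 3.81 and 4.30 CPM in vehicle and 11.5 and 10.3 CPM in HDT (log2 fold change 1.42). Each HDT mouse exceeded each vehicle mouse for all 3. The kinase Cdc7 had a log2 fold change of 1.21 and its activator Dbf4 one of 1.08. The ratio of Dbf4 to Cdc7 CPM, 8.21 and 7.94 in the vehicle mice and 7.78 and 6.92 in the HDT mice, was slightly lower in the HDT mice. Cdc7 had only 52 reads in each vehicle library, and whether so small a difference exceeds counting error was not tested.

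The GINS complex holds 4 subunits in equal number, and its transcripts were uneven. Gins2 was at 43.6 and 43.3 CPM in the vehicle mice and 47.1 and 52.2 CPM in the HDT mice (log2 fold change 0.19, SE 0.0709, limma adjusted p = 0.0675; chromosome 8, 120578633 to 120589304), just above the vehicle range and without a call. It was called with upper-quartile scaling (adjusted p = 0.0355), without HDT replicate 1 (adjusted p = 0.0262) and at the deposited scaling. Gins1, Gins3 and Gins4 were called higher with log2 fold changes of 0.78, 0.58 and 0.42. The Gins3 call was lost without vehicle replicate 1, vehicle replicate 2 or HDT replicate 1 (adjusted p of 0.0673 to 0.0916) and with DESeq2 (adjusted p = 0.0933). The Gins4 call was lost without vehicle replicate 1 (adjusted p = 0.0583) or HDT replicate 1 (adjusted p = 0.0607). Gins2 shares 67.3% of its exonic bases with Gse1 on the opposite strand, which was at 62.5 and 63.4 CPM in vehicle and 60.3 and 65.3 CPM in HDT, with overlapping groups and no call. How many reads of this stretch belong to which gene was not tested, so the level and the change of Gins2 may include reads of Gse1.

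Pcna and 4 of the 5 genes of its loader rose. Pcna, the sliding clamp, was at 58.3 and 60.9 CPM in the vehicle mice and 95.7 and 92.3 CPM in the HDT mice, a log2 fold change of 0.66, and had the highest level per exon length of all 52 genes in both groups. The pseudogene Pcna-ps2 was counted at 14 to 55 reads per library, so little of the Pcna signal lay there. Rfc3, one of the small loader subunits, was at 8.29 and 7.98 CPM in vehicle and 15.8 and 16.7 CPM in HDT (log2 fold change 1.00, SE 0.0925, limma adjusted p = 0.000129; chromosome 5, 151642756 to 151651242). Rfc5 was at 32.9 and 35.02 CPM in vehicle and 37.9 and 36.2 CPM in HDT (log2 fold change 0.13, SE 0.0692, limma adjusted p = 0.191; chromosome 5, 117378103 to 117389047), with no call and with the HDT mice only just above the vehicle mice. The large subunit Rfc1 and the small subunits Rfc2 and Rfc4 were called, at 0.48, 0.55 and 0.90. Clamp and loader genes thus ranged from 0.13 to 1.00, below every gene of the helicase core. Rfc5 shares 10.7% of its exonic bases with Wsb2 on the opposite strand, at 92.7 and 91.1 CPM in vehicle and 62.3 and 62.5 CPM in HDT and called lower (log2 fold change −0.56, limma adjusted p = 0.000235). Rfc4 shares 12.7% with Eif4a2 on the opposite strand, also called lower (log2 fold change −0.81, limma adjusted p = 7.44e-05). How far such reads enter the values of Rfc5 and Rfc4 was not tested.

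The 3 subunits of replication protein A, which coats single-stranded DNA, were all called higher. Rpa2 was at 4.89 and 4.79 CPM in the vehicle mice and 10.97 and 10.9 CPM in the HDT mice (log2 fold change 1.17, SE 0.11, limma adjusted p = 0.000122; chromosome 4, 132768332 to 132778752), and Rpa3 at 7.16 and 7.43 CPM in vehicle and 10.3 and 10.7 CPM in HDT (log2 fold change 0.53, SE 0.10, limma adjusted p = 0.00464; chromosome 6, 8255936 to 8259173). Rpa1, the DNA-binding large subunit, had a log2 fold change of 0.72.

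Both Okazaki fragment genes rose within the range of the helicase core. The ligase Lig1 was at 17.7 and 20.0 CPM in the vehicle mice and 59.0 and 52.6 CPM in the HDT mice (log2 fold change 1.57, SE 0.0885, limma adjusted p = 1.25e-05; chromosome 7, 13277283 to 13311433). The flap endonuclease Fen1 was at 7.67 and 8.45 CPM in vehicle and 23.7 and 21.9 CPM in HDT (log2 fold change 1.50, SE 0.0950, limma adjusted p = 2.04e-05; chromosome 19, 10199132 to 10204169). Of the exonic bases of Fen1, 78.8% are shared with the antisense gene Gm10143, which was at 7.55 and 8.25 CPM in vehicle and 23.2 and 21.4 CPM in HDT, and the 2 cannot be told apart without strand. Fen1 had 270 and 291 reads in vehicle and 1217 and 1105 in HDT. Gm10143 had nearly the same, 266 and 284 in vehicle and 1196 and 1078 in HDT. Whether the same reads were counted for both genes was not tested.

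Genes that follow the fork on chromatin rose as well. The SNF2-type remodeller Hells was at 8.29 and 10.2 CPM in vehicle and 28.7 and 27.9 CPM in HDT (log2 fold change 1.62, SE 0.11, limma adjusted p = 2.81e-05; chromosome 19, 38930915 to 38971051). Chaf1a, a subunit of the histone chaperone CAF-1, was at 6.14 and 5.57 CPM in vehicle and 17.3 and 15.3 CPM in HDT (log2 fold change 1.47, SE 0.11, limma adjusted p = 4.57e-05; chromosome 17, 56040439 to 56072289), and Chaf1b had a log2 fold change of 1.56. Chaf1a shares 52.5% of its exonic bases with Ubxn6 on the opposite strand, which was at 60.8 and 57.9 CPM in vehicle and 43.8 and 43.9 CPM in HDT and was called lower (log2 fold change −0.43, limma adjusted p = 0.00111).

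Fork protection genes split by size. Claspin (Clspn), which carries the checkpoint signal from stalled forks to Chek1, was at 4.23 and 5.37 CPM in the vehicle mice and 18.4 and 15.0 CPM in the HDT mice (log2 fold change 1.80, SE 0.15, limma adjusted p = 9.08e-05; chromosome 4, 126556935 to 126593903). Tipin, the partner of Timeless, was at 8.58 and 7.67 CPM in vehicle and 11.6 and 11.6 CPM in HDT (log2 fold change 0.52, SE 0.10, limma adjusted p = 0.00583; chromosome 9, 64281581 to 64305424). Timeless itself had a log2 fold change of 1.29, and the ratio of Timeless to Tipin CPM was 0.556 and 0.712 in the vehicle mice and 1.18 and 0.990 in the HDT mice. Wdhd1, which links polymerase alpha to the helicase, had a log2 fold change of 1.65. Mcm8, a relative of the ring that works in homologous recombination and not in licensing, was at 2.47 and 2.64 CPM in vehicle and 5.93 and 5.21 CPM in HDT (log2 fold change 1.11, SE 0.15, limma adjusted p = 0.000752; chromosome 2, 132816141 to 132844197).

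**Figure D3:**
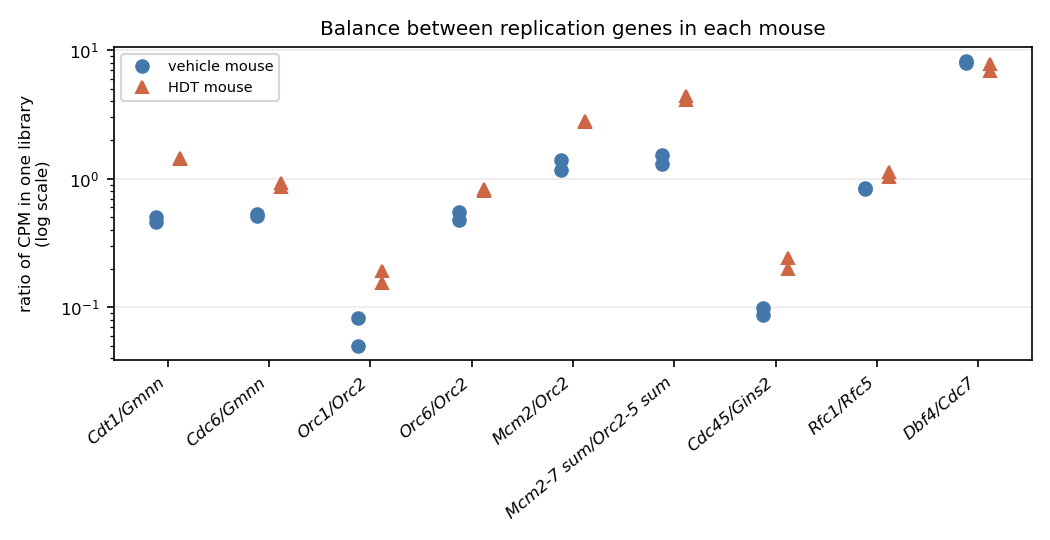
Ratio of the CPM of 1 gene, or sum of genes, to that of another within each library, on a log axis, with circles for the 2 vehicle mice and triangles for the 2 HDT mice. Cdt1 to Gmnn went from about 0.464 and 0.502 to 1.46 and 1.44, while Dbf4 to Cdc7 stayed between 6.92 and 8.21.

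Levels of different genes were compared only per kilobase of merged exon, from GENCODE M21 on GRCm38. The annotation used for counting is not given in the sources used here, so these values are approximate. Pcna led in every library, at 24.3 and 25.4 CPM per kb in vehicle and 39.9 and 38.5 CPM per kb in HDT. Orc1 had the lowest mean of both groups, at 0.327 and 0.217 CPM per kb in vehicle and 0.883 and 0.678 CPM per kb in HDT, although Ticrr and Pole lay below it in vehicle replicate 1 and Cdc7 in HDT replicate 1. By group mean, in vehicle Gins2, Gmnn, Gins4 and Rfc5 followed Pcna, and in HDT Mcm6, Mcm7, Mcm3 and Mcm4 did. The levels of Gins2 and Rfc5 may include reads of the opposite-strand genes Gse1 and Wsb2 named above. The other two genes of the helicase core, Mcm5 and Mcm2, ranked 20 and 27 in vehicle and 8 and 19 in HDT. Gmnn, ranked 3 in vehicle, was at 10.1 and 10.3 CPM per kb in vehicle and 10.8 and 10.2 CPM per kb in HDT, which places it 11 in HDT. Mcm6, ranked 7 in vehicle and 2 in HDT, was at 6.43 and 7.77 CPM per kb in vehicle and 21.2 and 18.9 CPM per kb in HDT.

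Within a complex the levels per kb were not equal. In the Mcm2-7 ring the highest gene, Mcm6, was 2.74 and 2.56 times the lowest, Mcm2, in vehicle and 3.26 and 3.12 times in HDT. Among Orc1 to Orc6 the highest was 14.2 and 20.5 times the lowest in vehicle and 5.99 and 7.60 times in HDT, where Orc6 took the place of Orc4 at the top. In the loader, Rfc5 to Rfc3 was 3.06 and 3.39 in vehicle and 1.85 and 1.67 in HDT. The ratio of highest to lowest was 12.85 and 12.63 in vehicle and 10.93 and 10.62 in HDT for GINS. For polymerase alpha with primase it was 7.61 and 4.85 in vehicle and 3.34 and 3.55 in HDT. For replication protein A it was 3.86 and 4.09 in vehicle and 2.91 and 2.65 in HDT. The ratio was thus smaller in both HDT mice for all of these complexes except the Mcm2-7 ring, where it was larger.

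Across the 52 genes, a lower level per kb in vehicle went with a larger log2 fold change (Spearman's rho −0.549). The points share the vehicle libraries, which enter both measures, so this is a description only. Within groups the value was −0.189 for 15 licensing genes, −0.767 for 9 polymerase genes and −0.737 for 28 fork genes. Exonic length and log2 fold change had a rho of 0.284 over the same 52 genes.

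**Figure D4:**
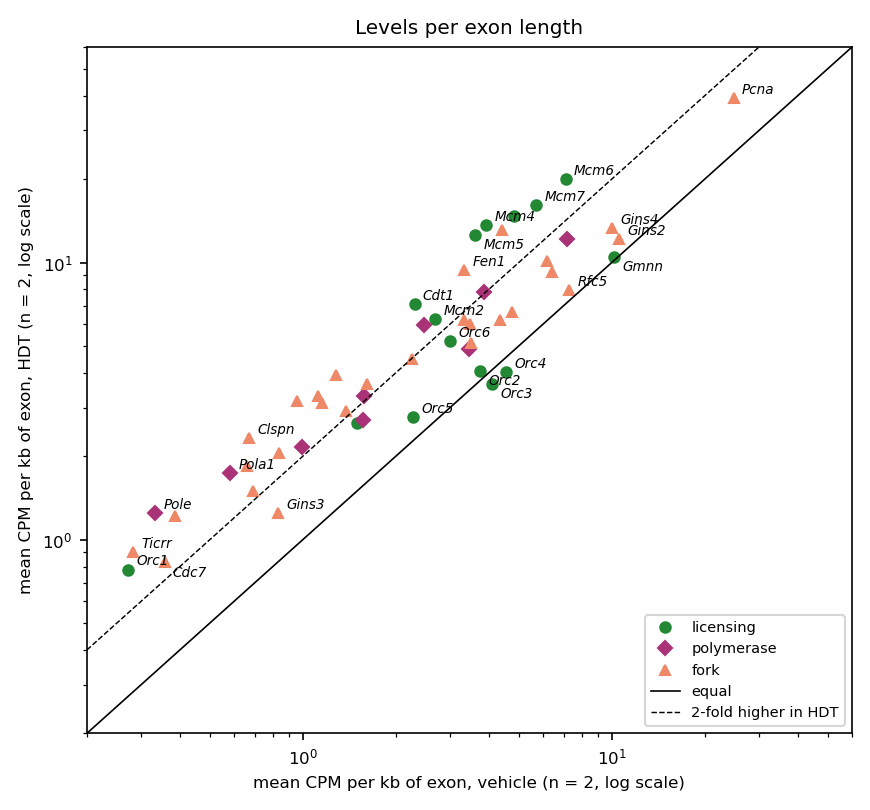
Mean CPM per kb of merged exon in vehicle (x axis) and in HDT (y axis), n = 2 mice each, on log axes, coloured by group; the solid line marks equal levels and the dashed line a 2-fold higher level in HDT. Mcm genes lie above the dashed line, Gmnn and Orc2 lie near the solid line, and Orc3 and Orc4 lie just under it.

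The 18 genes with an E2F spelling in their window, described above, had a median log2 fold change of 1.50, and 17 of them were called higher. The 25 genes with a window and no such spelling had a median of 1.08, and 22 were called higher. The ranges overlapped almost wholly, −0.17 to 1.80 and −0.17 to 1.73. Orc3 had the spelling shown above and no call, while Mcm10, Ticrr, Wdhd1 and Fen1 had large changes and no match.

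**Figure D5:**
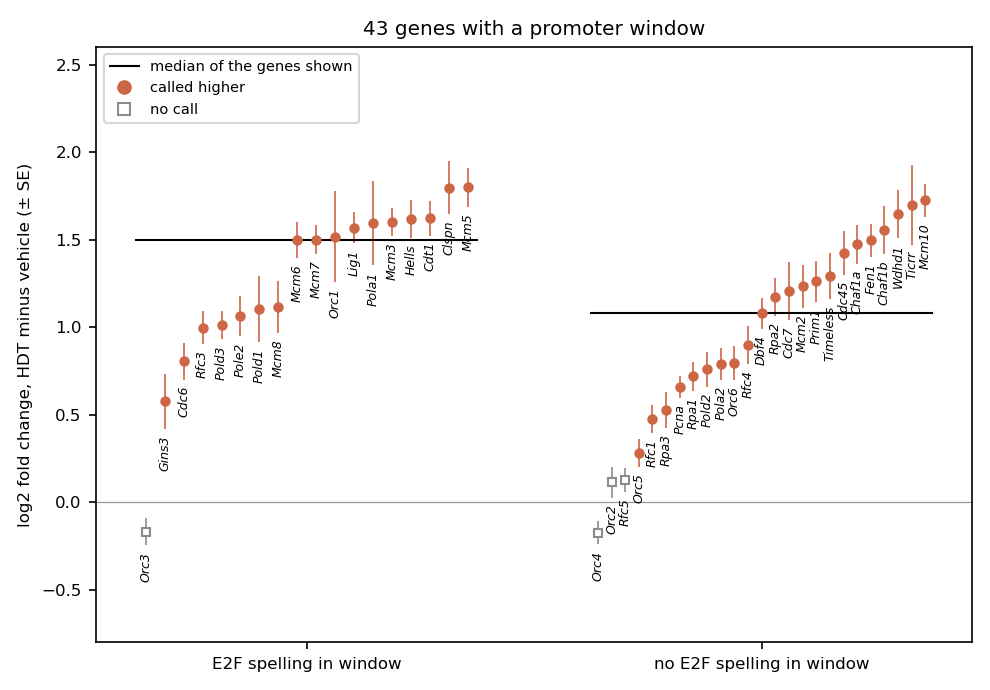
Log2 fold change, HDT minus vehicle, with its limma SE, of the 43 genes with a RefSeq promoter window, split by whether 1 of the 4 E2F spellings occurs there and sorted within each set; black lines are medians. The medians are 1.50 for 18 genes and 1.08 for 25 genes, and both sets span from below 0 to above 1.7.

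Other genes of replication were read from a list of 38 that holds none of the 52. Limma called 27 of them higher and 1 lower and left 10 uncalled, with a median log2 fold change of 0.50. Over all tested genes it called 18.4% higher and 19.3% lower. The nuclease-helicase Dna2, which trims long flaps, was at 1.59 and 1.77 CPM in vehicle and 6.26 and 5.49 CPM in HDT (log2 fold change 1.79, SE 0.16, limma adjusted p = 0.00011), and the helicase Recql4 at 1.39 and 1.28 CPM in vehicle and 4.90 and 4.40 CPM in HDT (log2 fold change 1.78, SE 0.17, limma adjusted p = 0.000144). Pole4, a histone-fold subunit of polymerase epsilon, was the member called lower, at 16.8 and 15.7 CPM in vehicle and 11.7 and 13.5 CPM in HDT (log2 fold change −0.37, SE 0.0993, limma adjusted p = 0.0211). At the deposited scaling its log2 fold change was 0.16 without a call, and without vehicle replicate 1 or HDT replicate 1 it was not called (adjusted p = 0.0981 and 0.111). Within polymerase epsilon, then, Pole, Pole2 and the small subunit Pole3 were called higher with TMM. Pole3 was at 25.9 and 25.5 CPM in vehicle and 33.6 and 30.9 CPM in HDT (log2 fold change 0.33, SE 0.0729, limma adjusted p = 0.00957). Only Pole4 was called lower, and with the replicate number as a block it was not called (limma adjusted p = 0.0667).

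Of 9 genes of the S-phase checkpoint, 5 were higher and 4 had no call with limma, and edgeR and DESeq2 also called 5 higher. Their median log2 fold change was 0.30. The share called higher by limma over all tested genes, for these genes and the repair polymerases below, was 18.4%. The kinase Chek1, which receives the claspin signal, was at 2.698 and 3.05 CPM in vehicle and 8.50 and 8.12 CPM in HDT (log2 fold change 1.53, SE 0.13, limma adjusted p = 9.84e-05), and the clamp gene Hus1 had a log2 fold change of 0.72. Of 11 translesion and repair polymerase genes, 5 were higher and 6 had no call, with a median of 0.34. The higher count was 3 with DESeq2, which called 2626 of the 18285 tested genes higher. It was also smaller in fits without HDT replicate 1, HDT replicate 2 or vehicle replicate 1. So few genes cannot show whether these counts differ from the share over all genes. Polymerase theta (Polq), which joins broken ends, was at 1.28 and 1.66 CPM in vehicle and 6.24 and 5.35 CPM in HDT (log2 fold change 1.97, SE 0.19, limma adjusted p = 0.000144), and Rev3l had a log2 fold change of 0.66.

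Replication of mitochondrial DNA uses a separate set of proteins. Of 10 such genes 1 was higher and 1 lower, where 18.4% and 19.3% of all tested genes were. So few genes cannot show whether these counts differ from those shares. The median log2 fold change of the 10 genes was 0.14, with a range of −0.22 to 0.24. The packaging factor Tfam was at 28.0 and 27.5 CPM in vehicle and 33.1 and 32.4 CPM in HDT (log2 fold change 0.24, SE 0.0662, limma adjusted p = 0.024), and the transcription factor Tfb2m was lower in both HDT mice (log2 fold change −0.22, SE 0.0708, limma adjusted p = 0.04). The Tfam call was lost in 3 of the 4 fits that leave out 1 mouse and the Tfb2m call in all 4, and at the deposited scaling Tfb2m was called higher, by 0.31. The mitochondrial polymerase gene Polg was at 35.3 and 35.6 CPM in vehicle and 36.8 and 36.8 CPM in HDT, with no call.

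The proliferation marker Mki67 moved with the replication genes. It was at 42.0 and 50.1 CPM in the vehicle mice and 197 and 160.3 CPM in the HDT mice (log2 fold change 1.95, SE 0.13, limma adjusted p = 0.000114), and all 52 genes had a smaller log2 fold change than this. The other dividing-cell gene read beside them, Top2a, had a log2 fold change of 2.20. The summed CPM of the 52 genes was 689 and 729 in vehicle and 1406 and 1299 in HDT, or 16.4 and 14.5 times Mki67 in vehicle and 7.15 and 8.10 times in HDT. HDT replicate 1 was above HDT replicate 2 for 44 of the 52 genes, and it had the higher Mki67 as well. Vehicle replicate 2, with the higher Mki67 of its group, was above vehicle replicate 1 for 34 of the 52. The same shares over all tested genes were not counted, and genes of the same libraries are not independent.

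Some genes of other cell types also differed between the groups. Over all tested genes limma called 18.4% higher and 19.3% lower, and in lists this short a count of 1 or 2 genes cannot be told from those shares. The 6 parietal genes, of which 5 were lower and 1 had no call, summed to 11843 and 12975 CPM in vehicle and 1825 and 1468 CPM in HDT. The 4 chief cell genes found, 3 lower and 1 without a call, summed to 141920 and 174340 CPM in vehicle and 40274 and 29601 CPM in HDT. Of 6 fibroblast genes 5 were higher and 1 had no call, with sums of 1026 and 1010 CPM in vehicle and 1881 and 2116 CPM in HDT. Of 8 leukocyte genes 4 had enough reads to be tested and 2 were higher, Cd68 and Csf1r, while the pan-leukocyte gene Ptprc was at 7.44 and 6.88 CPM in vehicle and 7.93 and 6.72 CPM in HDT and the T and B cell genes Cd3e, Cd79a and Ms4a1 lay at 0.284 CPM or below. The 4 surface mucous genes were all lower, and 2 of 3 mucous neck genes were lower. Of 5 endocrine genes 2 were lower (Ghrl and Sst) and 3 had no call. Among those 3, Chgb was at 24.2 and 23.9 CPM in vehicle and 210.2 and 90.6 CPM in HDT (log2 fold change 2.52, SE 0.55, limma adjusted p = 0.0743), and HDT replicate 1 stood apart from HDT replicate 2 also for Chga, at 588 against 308 CPM, and Hdc, at 40.3 against 22.2 CPM. Of 4 endothelial genes 1 was lower (Kdr) and 3 had no call, of which Pecam1 and Cdh5 were above the vehicle mice in both HDT mice (log2 fold changes 0.26 and 0.32). Of 3 mesothelial genes 2 were lower (Upk3b and Wt1) and Msln had no call. The 5 smooth muscle genes had no call, and their sums overlapped, at 2355 and 1656 CPM in vehicle and 1454 and 2134 CPM in HDT. The 3 squamous and 3 exocrine pancreas genes with enough reads to be tested had no call. Which cell types carry the rise of the replication genes, and what part these shifts have in it, was not tested.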

How the data were processed

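RNA from the corpus of 4 mice was sequenced, 2 per group. The tools named per the submitters' processing notes are edgeR, Subread 2.0.0 with featureCounts, and STAR 2.7.1a, with the GRCm38/mm10 build. Not given in the sources used here: their order, annotation, strand setting and normalization. The deposited values are a normalized gene signal: in each library every value is a whole number of reads times 1 constant, so whole reads could be recovered. Since the values are normalized, limma 3.58.1 (R 4.3.3) with trend and robust moderation was applied to log2(value + 1) after TMM scaling with edgeR 4.0.16, by group only, with Benjamini-Hochberg adjustment over 18285 genes and a threshold of 0.05, two-sided. A pseudocount of 1 equals 0.89 reads, and fold changes of scarce genes are understated on this scale. Genes with too few reads (filterByExpr, minimum 10) were not tested.

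The alternatives were other scalings, filters and pseudocounts, edgeR and DESeq2 1.42.0 on recovered reads, a replicate block, and leaving out each library. The fitting script was tested on simulated data. Members and gene lists were chosen with earlier results of these data known. In each role, the genes with the largest and smallest log2 fold change and every gene without a call are given in full; in other pathway lists, the 2 called genes with the largest change and any gene moving against the list are named. P-values measure the spread between these mice only.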

Additional observations from a re-analysis of the deposited data

How the results depend on the processing

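The scarcest of the 52 genes had 26 reads in its lowest library, and each group held 2 mice; which of depth and number of mice limits the calls was not tested. Fits were also made without each library in turn, which leaves 1 mouse in its group. In these fits the median log2 fold change ran from 1.04 to 1.19 for all 52 genes, from 1.05 to 1.30 for licensing, from 0.93 to 1.09 for polymerase and from 1.04 to 1.19 for fork genes. At the deposited scaling the medians were 1.62, 1.77, 1.59 and 1.63 in the same order, and Orc3 (0.36), Orc4 (0.36), Pole4 (0.16) and Tfb2m (0.31) changed sign. That scaling does not centre most genes on no change as TMM does, and the median of all tested genes was 0.526 there. All 52 calls stayed on their side of the threshold with DESeq2 size factors, either filter, both pseudocounts and edgeR. DESeq2 on recovered reads lost Orc5 and Gins3, and upper-quartile scaling added Gins2.

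The labels do not say that equal replicate numbers mark a pair, and the differences between replicates in the 2 groups had r = −0.142 over 18285 genes. With the replicate number as a block, which leaves 1 residual degree of freedom, 44 of the 52 genes were higher and 0 lower, Orc5 (adjusted p = 0.0845) and Gins3 (adjusted p = 0.0619) having no call, while over all genes 2368 were higher and 2629 lower by limma. In the crossed pairing, chosen after seeing the data, 47 of the 52 genes were higher and 1 lower, with 4197 higher and 4323 lower over all genes. The cause of these shifts was not tested.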
